A study of Homo sapiens with 9 samples.

Results

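LASP1 (ENSG00000002834) and KRIT1 (ENSG00000001631) are genes of an actin-binding protein and of a protein of cell junctions. They were taken by name from the 49 genes whose read counts were analysed, so 2 of 49 genes are described here. RNA-seq was performed on HK-2, an immortalized line of human proximal tubular epithelial cells, in 3 groups of 3 libraries. The shJMJD1A-AGE group carried a lentiviral shRNA against the H3K9 demethylase JMJD1A and was exposed to 400 μg/ml of advanced glycation end products (AGEs) for 72 h. The shCtrl-AGEs group carried a control shRNA and received the same AGEs. The shCtrl-Normal group carried the control shRNA and was, by its title, the group without AGEs, although the same treatment text naming AGEs is attached to all 9 samples. All groups thus carried a lentiviral shRNA, and all came from the same cell line. Whether the libraries stem from different cultures is not stated in the labels. Each p-value describes the scatter of the libraries in its fit, which may be technical. Fewer cells of a kind and less RNA per cell cannot be told apart in such bulk samples.

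LASP1, the LIM and SH3 domain protein, binds actin filaments through nebulin-like repeats and is found at focal adhesions and at the leading edge of moving cells, where its SH3 domain contacts zyxin and VASP. KRIT1, also called CCM1, is a scaffold that binds the small GTPase Rap1 and the integrin regulator ICAP1, and it forms a complex with CCM2 and PDCD10 that steadies cell-cell junctions and restrains integrin signalling. Loss of KRIT1 causes cerebral cavernous malformations. In tubular epithelium, rearranged actin and loosened junctions are part of epithelial-mesenchymal transition, the process that AGEs are used to provoke in HK-2 cells.

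In GENCODE release 44 (GRCh38), LASP1 occupies positions 38869859 to 38921770 of chromosome 17 on the plus strand. Its canonical transcript has 7 exons and 3910 bases. KRIT1 occupies positions 92197498 to 92246166 of chromosome 7 on the minus strand, with 70 annotated transcripts and a canonical transcript of 19 exons and 4079 bases. ANKIB1, a ubiquitin ligase gene that was also counted, begins on the other strand 59 bases away from the canonical KRIT1 start, and 7 KRIT1 transcripts start inside ANKIB1, so that the spans of both genes overlap by 193 bases. The sequences directly before the member starts are given. A stretch over the ANKIB1 start is added because the libraries read out both KRIT1 and ANKIB1, a head-to-head pair. All sequences are from RefSeq (GRCh38.p14), 5′ to 3′ on the strand of the member. Capitals mark GGGCGG, the GC box, in LASP1 and CCGGAAG, a form of the ETS factor motif, in KRIT1.
LASP1, 30 bases before the canonical start, chr17:38870028-38870057, plus strand: tttattaggggaaggaGGGCGGaggcggag
KRIT1, 30 bases before the canonical start, chr7:92245915-92245944, minus strand: tgcaaagggtgtgaacCCGGAAGcgatttc
KRIT1 strand over the ANKIB1 start, chr7:92245959-92245988, minus strand: cccggccgccgacCCGGAAGctctttcacc
In windows of 250 bases before the RefSeq starts, searched on both strands, CCGGAAG occurred 2 times before KRIT1 in the window next to its canonical start and 0 times before LASP1. It was present in 8.52% of 35116 windows of all genes. GGGCGG occurred 3 times before LASP1 and 1 time in that KRIT1 window, and was present in 42.6% of all windows. A further KRIT1 window, before a RefSeq start inside ANKIB1, held CCGGAAG 0 times and GGGCGG 2 times. None of these windows held CCAAT or TATAAA. These matches describe letters in the windows and no binding was measured.

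The annotation sets how the counts of each gene can be read. ENSG00000285953 and ENSG00000289027 are protein-coding gene models that begin near the KRIT1 start, share its exons and run on past its end on the same strand. Exons 1 to 17 of the canonical KRIT1 transcript lay wholly within exons of other genes on that strand. Exon 18, of 117 bases, and 963 of the 1392 bases of exon 19 lay in no exon of another gene, and the other 429 bases of exon 19 lay in an exon of a noncoding gene on the same strand. The counting tool leaves out reads that fall on several genes by default, and the annotation release and settings behind these counts are not given in the sources used here. The KRIT1 count may therefore stand for the whole transcript or mainly for its end. LASP1 shared 11.7% of its canonical exon bases with a noncoding gene on the other strand and none with a gene on its own strand.

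**Figure D1:**
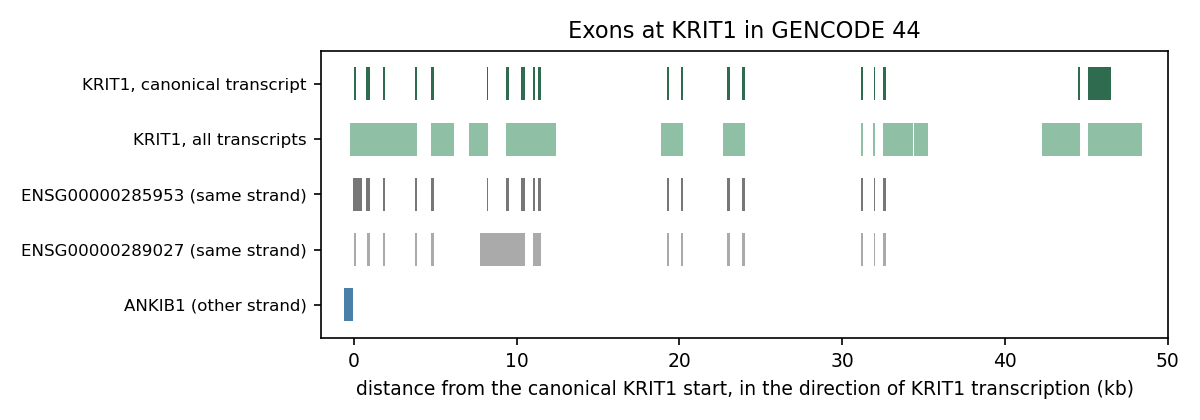
Exons at KRIT1 by distance in kb from the canonical KRIT1 start, in the direction of KRIT1 transcription, for the canonical transcript, all KRIT1 transcripts, the same-strand gene models ENSG00000285953 and ENSG00000289027, and ANKIB1 on the other strand. Exons 1 to 17 of the canonical transcript lie over exons of the same-strand models, while exons 18 and 19 overlap no exon of these models.

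LASP1 had the most reads of the 49 genes in all 9 libraries, with 13073 to 21009 reads or 18.6% to 21.6% of the counts of these genes. The sums over the 49 genes ran between 67563 and 107036 reads and are not the depth of the libraries. Per kb of canonical transcript, the level of LASP1 averaged 4691 normalized reads over the 9 libraries and was also the highest of 49. KRIT1 had 160 to 371 reads. Its level of 69.9 normalized reads per kb was in place 35 of 49, against a median of 220 over the genes. That level divides by all 4079 canonical bases, of which 1080 lay in no exon of another gene. Were the count mainly from the transcript end, level and place would be understated. ANKIB1, read from the other side of the same start region, had 471 normalized reads per kb.

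Normalized LASP1 counts (scaled by TMM over the 9 libraries) were 18563, 16174 and 17970 in shJMJD1A-AGE cells. In shCtrl-AGEs cells they were 20409, 19722 and 19513. In shCtrl-Normal cells they were 17296, 17121 and 18302. The shCtrl-AGEs libraries were above all 6 others, and the other groups overlapped each other. The means were 17569 ± 1244 in shJMJD1A-AGE, 19881 ± 469 in shCtrl-AGEs and 17573 ± 637 in shCtrl-Normal (SD, n = 3 each). The spread in shJMJD1A-AGE came to 7.08% of the mean, against 2.36% in shCtrl-AGEs and 3.63% in shCtrl-Normal, where counting error alone would give 0.706% to 0.795%.

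Normalized KRIT1 counts were 392, 324 and 160 in shJMJD1A-AGE cells. In shCtrl-AGEs cells they were 260, 226 and 275. In shCtrl-Normal cells they were 322, 317 and 291. The shJMJD1A-AGE libraries held both the highest values and the lowest one of all 9, with replicate 3 as the lowest. The means were 292 ± 120 in shJMJD1A-AGE, 254 ± 25.0 in shCtrl-AGEs and 310 ± 16.6 in shCtrl-Normal (SD, n = 3 each). In shJMJD1A-AGE the spread was 41.0% of the mean, against a counting error of 6.24%. In shCtrl-AGEs it was 9.85% against 6.36%, and in shCtrl-Normal the spread of 5.36% was close to the counting error of 5.32%. On the log2 scale the SD of KRIT1 in shJMJD1A-AGE was 0.68, place 3 of 46 genes, where the median gene had 0.16.

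**Figure D2:**
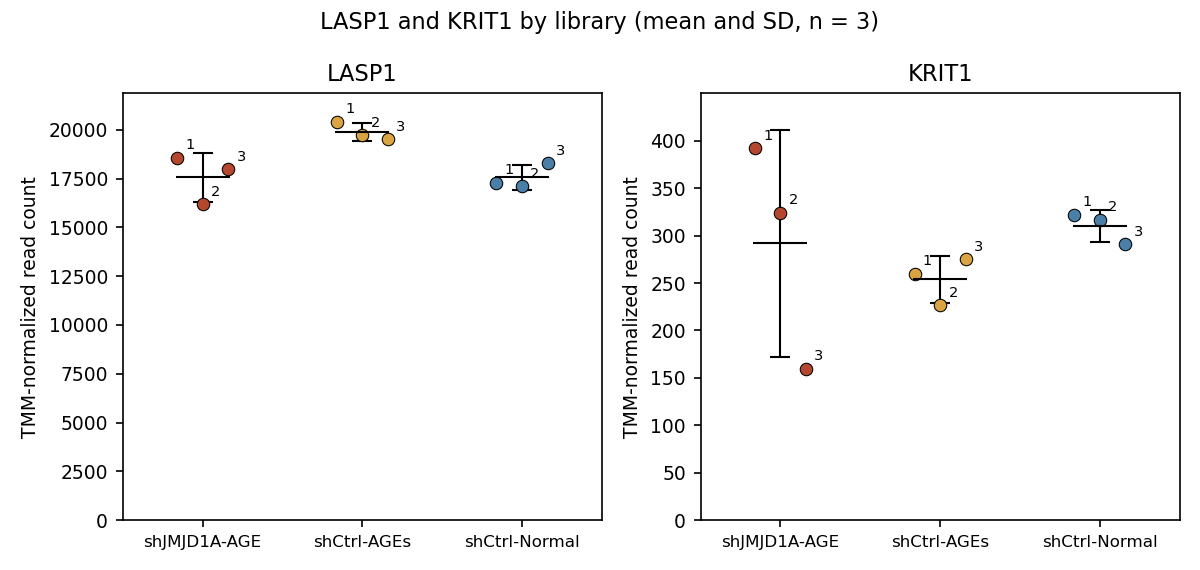
TMM-normalized read counts of LASP1 and KRIT1 in each library, with the replicate number beside each point and the mean and SD of each group (n = 3). LASP1 is highest in the 3 shCtrl-AGEs libraries, 19513 to 20409, and KRIT1 runs from 160 to 392 within shJMJD1A-AGE.

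To ask what AGEs change in cells with the control shRNA, shCtrl-AGEs was compared with shCtrl-Normal. Raw LASP1 reads overlapped, with 20898, 18734 and 18573 in shCtrl-AGEs against 19927, 19188 and 21009 in shCtrl-Normal. The scaling drew on the counted genes alone, so fold changes are relative to those genes. On that scale LASP1 rose in AGEs, with a log2 fold change of 0.21 (standard error 0.055, 95% interval 0.10 to 0.32), a fold of 1.16. The quasi-likelihood test of edgeR, adjusted by Benjamini-Hochberg over the 46 genes tested, gave an adjusted p of 0.000751. In this comparison 32.6% of the genes tested passed at an adjusted p under 0.05 and 19.6% passed as higher, so LASP1 was 1 of 9 genes that rose. Its size was in place 11 of 46 from the top and its adjusted p in place 9. The change was smaller than a fold of 2.

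KRIT1 had a log2 fold change of −0.25 in the same comparison (standard error 0.11, 95% interval −0.47 to −0.034), a fold of 0.841, and did not pass (edgeR adjusted p = 0.0645), where 13% of the genes tested passed as lower. Its 3 shCtrl-AGEs libraries were all below its 3 shCtrl-Normal libraries. Libraries of the groups did not overlap for 47.8% of the genes tested, so this separation was common. KRIT1 passed as lower under 4 of 18 other settings, and over all of them its log2 fold change lay between −0.33 and −0.18 and its adjusted p, from edgeR, DESeq2 or the exact permutation test, between 0.0189 and 0.446.

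The members were also set against each other within each library, a ratio that no scaling of the libraries can change. LASP1 had 78.6, 87.1 and 70.9 reads for each KRIT1 read in shCtrl-AGEs, against 53.7, 54.1 and 62.9 in shCtrl-Normal. All 3 shCtrl-AGEs ratios were above all 3 shCtrl-Normal ratios. The mean log2 ratio was 6.30 ± 0.15 in shCtrl-AGEs and 5.83 ± 0.13 in shCtrl-Normal (SD, n = 3 each), a difference of 0.47 or a fold of 1.39. The two-sided exact permutation test gave p = 0.1, which is the smallest p that 3 libraries against 3 allow.

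To ask what silencing of JMJD1A changes under AGEs, shJMJD1A-AGE was compared with shCtrl-AGEs. Relative to the counted genes, LASP1 fell by 0.21 on the log2 scale (standard error 0.067), a fold of 0.866. The 95% interval was −0.35 to −0.060 on the log2 scale. The edgeR adjusted p was 0.0259. Of the 45 genes tested 42.2% passed, 22.2% passed as lower, and 8.89% passed with a fold of at least 2, which LASP1 did not reach. On the TMM scale all 3 shJMJD1A-AGE libraries were below all 3 shCtrl-AGEs libraries, and groups did not overlap for 53.3% of genes. As a share of the counted reads the groups overlapped for LASP1. It had 21.4%, 19.3% and 20.7% in shJMJD1A-AGE, against 21.3%, 21.2% and 21.6% in shCtrl-AGEs. The call was sensitive to the processing. It was kept in 8 of 18 other settings, with adjusted p values of 0.00687 to 0.302 over edgeR, DESeq2 and the exact permutation test. It ended among others with DESeq2's Wald test (log2 fold change −0.18, adjusted p = 0.112), with DESeq2 size factors in edgeR (adjusted p = 0.178), with no filter (adjusted p = 0.14) and without either of 2 shCtrl-AGEs libraries, replicate 1 (−0.18, adjusted p = 0.0578) and replicate 3 (−0.22, adjusted p = 0.0722).

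The size of this LASP1 value depended on the scaling. Under plain totals the log2 fold change of LASP1 was −0.061 (edgeR adjusted p = 0.302), while the median of all genes moved up by 0.15. A scaling moves all genes together, so the distance of LASP1 from the median gene is nearly the same under any of them by construction. That distance was −0.25 for silencing and 0.22 for AGEs. The sign of LASP1 was positive in AGEs and negative after silencing in all 18 other settings of each comparison.

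KRIT1 did not pass after silencing, with a log2 fold change of 0.17 over shCtrl-AGEs (standard error 0.33, edgeR adjusted p = 0.714). The 95% interval of −0.65 to 0.99 holds changes in both directions, so the test does not show that KRIT1 was unaltered. The value turned on replicate 3 of shJMJD1A-AGE. Without that library KRIT1 passed as higher, at 0.46 (standard error 0.12, edgeR adjusted p = 0.000685, the lowest of the 18 other settings, the highest being 0.9). That fit rests on replicates 1 and 2 alone for the group. In it 28 genes passed, against 19 with all libraries, so passing was common there. Without replicate 1 KRIT1 stood at −0.087 (edgeR adjusted p = 0.866). The LASP1 to KRIT1 ratio showed the same split, with 47.3, 49.9 and 113 LASP1 reads for each KRIT1 read in shJMJD1A-AGE, against 78.6, 87.1 and 70.9 in shCtrl-AGEs. Replicates 1 and 2 were below every library of both other groups and replicate 3 was above every one. The mean log2 ratio was 6.01 ± 0.70 in shJMJD1A-AGE and 6.30 ± 0.15 in shCtrl-AGEs (SD, n = 3 each), and the two-sided exact permutation test gave p = 0.5. The difference was −0.29, and −0.69 without replicate 3.

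**Figure D3:**
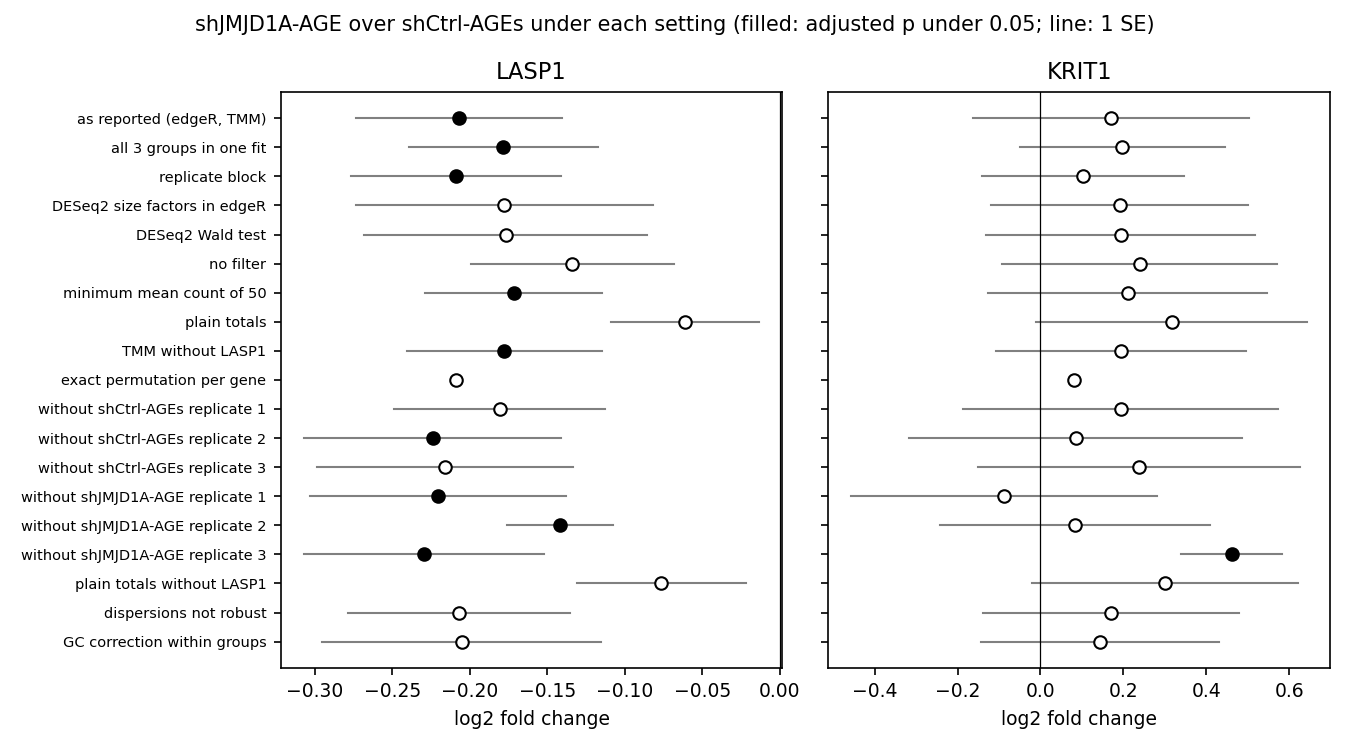
Log2 fold change of LASP1 (left) and KRIT1 (right) in shJMJD1A-AGE over shCtrl-AGEs under each setting, with lines of 1 standard error where the fit gives one and filled points for an adjusted p under 0.05. LASP1 lies below 0 in every setting shown, between −0.23 and −0.061, and KRIT1 passes only without shJMJD1A-AGE replicate 3, at 0.46.

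Replicate 3 of shJMJD1A-AGE differed from replicates 1 and 2 in more than KRIT1. Against the mean of replicates 1 and 2 its KRIT1 value was 1.15 lower on the log2 scale (−1.15), place 3 from the bottom of 46 genes, behind MTMR7 (−1.55) and CFTR (−1.53), which had few reads. LASP1 differed by 0.053 and was in place 27. Across the 41 genes with a mean of at least 50 normalized counts, this difference was larger for genes of higher GC content, with a Pearson correlation of 0.59 and a Spearman correlation of 0.71, and of 0.59 and 0.69 with KRIT1 left out. The genes share the library, and are not independent replicates. With each library set against the mean of its group, the Pearson correlation lay between −0.099 and 0.11 in the 6 control shRNA libraries. The Spearman correlation there lay between −0.14 and 0.31, the highest in shCtrl-Normal replicate 3. In shJMJD1A-AGE replicates 1 and 2 the Pearson correlations were −0.36 and −0.40, and the Spearman correlations −0.34 and −0.56. Deviations within a group are tied to each other, so these values do not tell which of its libraries carries the trend. KRIT1, at 37.7% GC over its canonical transcript, had the fourth lowest GC content of the 41, and LASP1, at 56.3%, was in place 7 from the top. The GC content of the stretch that gave the KRIT1 count is not known. The linear trend, fitted with KRIT1 included, was −0.25 at the GC content of its canonical transcript, so KRIT1 lay 0.91 below the trend (−0.91). With the trend within groups taken out of each library, KRIT1 after silencing had a log2 fold change of 0.14 (adjusted p = 0.684 by edgeR) and LASP1 had −0.21 (adjusted p = 0.0768 by edgeR). The trends cancel within each group by construction, so this step acts on the spread and largely leaves differences between groups as they were. It cannot show whether GC content altered these fold changes. What made replicate 3 differ from replicates 1 and 2 was not tested.

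**Figure D4:**
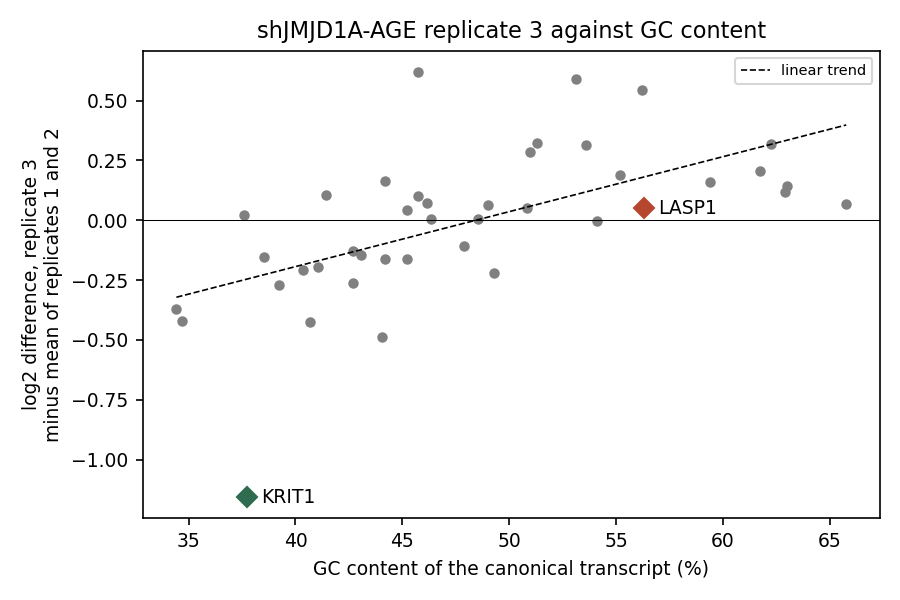
Log2 difference of shJMJD1A-AGE replicate 3 from the mean of replicates 1 and 2, by the GC content in percent of the canonical transcript, for 41 genes with a mean of at least 50 normalized counts; the dashed line is the linear trend. KRIT1, at −1.15, lies below the trend and LASP1, at 0.053, lies close to 0.

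Against shCtrl-Normal, which puts the AGEs and the shRNA together, neither member passed in shJMJD1A-AGE. LASP1 had a log2 fold change of 0.029 (standard error 0.082, 95% interval −0.15 to 0.21, edgeR adjusted p = 0.827), and its sign turned under 2 of the other settings. KRIT1 had −0.062 (standard error 0.27, 95% interval −0.65 to 0.53, adjusted p = 0.878 by edgeR). In this comparison 40% of 45 genes passed, 13.3% passed with a fold of at least 2, and groups did not overlap for 55.6%, whereas the libraries of both members overlapped. The comparisons share libraries, and the values of LASP1 in them, 0.21 for AGEs, −0.21 for silencing and 0.029 for both, are not independent of each other.

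**Figure D5:**
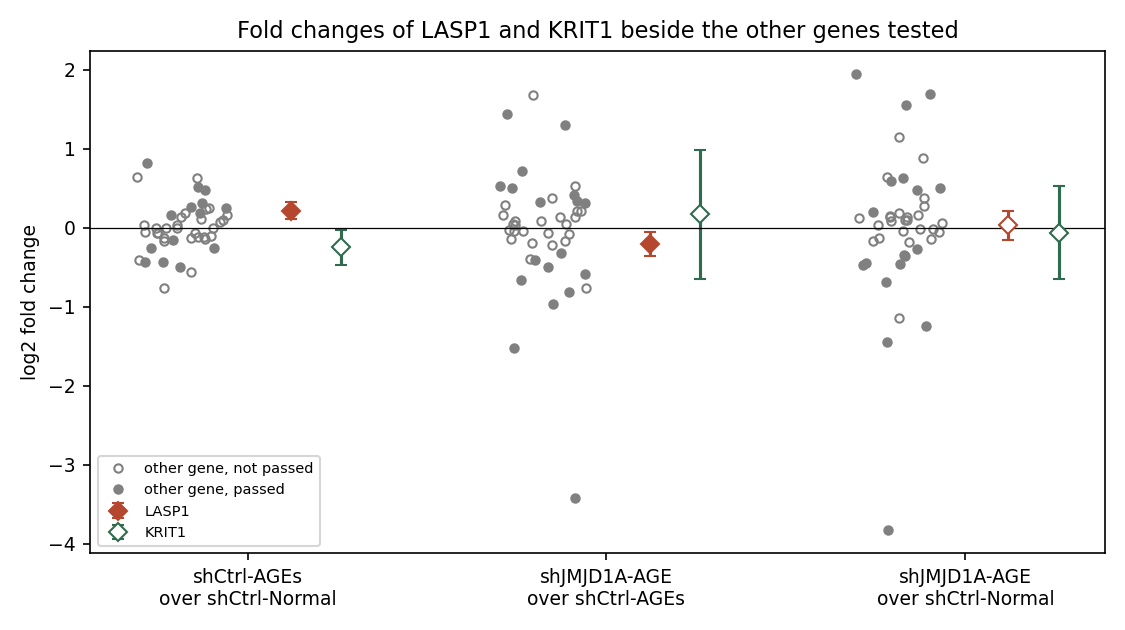
Log2 fold changes of LASP1 and KRIT1 (diamonds, with 95% intervals) in the 3 comparisons, beside those of the other genes tested (circles). Filled symbols passed at an adjusted p under 0.05; LASP1 is filled at 0.21 and −0.21, and KRIT1 is open in all 3.

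ANKIB1, the head-to-head neighbour of KRIT1, averaged 2601 ± 168 normalized counts in shJMJD1A-AGE, 2976 ± 142 in shCtrl-AGEs and 3372 ± 209 in shCtrl-Normal (SD, n = 3 each). Its log2 fold change was −0.15 for AGEs (adjusted p = 0.0675), −0.22 for silencing (adjusted p = 0.051) and −0.35 for shJMJD1A-AGE over shCtrl-Normal, where it fell (adjusted p = 0.00512, all by edgeR). ANKIB1 had 6.56, 8.58 and 15.3 reads for each KRIT1 read in the shJMJD1A-AGE libraries, 10.3 to 13.2 in the shCtrl-AGEs libraries and 10.78, 10.90 and 10.96 in the shCtrl-Normal libraries. The ratio was nearly constant in shCtrl-Normal, and the shJMJD1A-AGE libraries lay on both sides of all others. CYP51A1, an enzyme gene of cholesterol synthesis that starts 62694 bases beyond the end of KRIT1 on the same strand, rose in AGEs (log2 fold change 0.24, edgeR adjusted p = 0.0264). It fell after silencing (−1.52, edgeR adjusted p = 0.000857) and against shCtrl-Normal (−1.25, edgeR adjusted p = 0.00128). Of the 3155 canonical exon bases of CYP51A1, 311 lay in no exon of another gene, and the span of ENSG00000289027 reaches from KRIT1 into CYP51A1. The limit on reading the KRIT1 count thus holds for the CYP51A1 count too. No other gene of the 49 starts within 200 kb of the LASP1 start.

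By the root mean square difference of centred log2 counts over the 9 libraries, compared with 44 genes, the pattern most like LASP1 was that of SNX11, a sorting nexin (0.065). LASP1 itself varied by 0.10 on this scale. SNX11 did not pass for AGEs, with a log2 fold change of 0.076, or for silencing, with −0.15. The patterns most like KRIT1 were those of SCYL3 (0.26), RBM5, a splicing factor (0.28), and TFPI, the coagulation inhibitor (0.29), where KRIT1 itself varied by 0.35. None of these 3 passed in any comparison, and none followed KRIT1 closely.

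From a list of 62 genes of the actin cytoskeleton and focal adhesions, LASP1, MYH16, ARF5 and FGR are described here. FGR, a kinase of blood cells, had too few reads to test. MYH16, the human pseudogene of a jaw muscle myosin, with 9 to 49 reads, rose by 1.30 after silencing (edgeR adjusted p = 0.0295), where LASP1 fell. MYH16 also passed as higher in shJMJD1A-AGE over shCtrl-Normal (1.95, edgeR adjusted p = 0.00179). ARF5, a small GTPase of the Golgi, did not pass, with −0.12 for AGEs and −0.044 for silencing.

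Of 40 genes of the CCM complex, Rap1 signalling and cell junctions, KRIT1, CD99 and TSPAN6 were counted. In AGEs 0 of the 3 passed in either direction by edgeR, where KRIT1 alone had an unadjusted p under 0.05 (0.0238), and KRIT1 did not pass by DESeq2 either (adjusted p = 0.0748). After silencing 1 fell, TSPAN6, a tetraspanin of the cell surface, with a log2 fold change of −0.41 (edgeR adjusted p = 0.00215). It fell by 0.36 against shCtrl-Normal (edgeR adjusted p = 0.00166). CD99, a surface glycoprotein of cell-cell contacts, did not pass, with 0.64 for AGEs and 0.21 for silencing. Of 20 genes of semaphorin and plexin signalling to actin, PLXND1 and SEMA3F were counted. Both fell after silencing, by 0.59 and 0.49 on the log2 scale (edgeR adjusted p = 0.000131 and 0.00259), and neither passed for AGEs. Over all genes tested 32.6% passed for AGEs, and for silencing 42.2% passed and 22.2% passed as lower. With 3 and 2 genes counted, these lists describe only the members named. The partners of KRIT1 in its complex, the integrins, JMJD1A and 8 proximal tubule markers were not analysed here, so the shRNA target and the cell type were not checked. FGR and CD38, markers of blood cells, had 3 reads each over the 9 libraries.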

How the data were processed

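RNA-seq reads of 9 HK-2 libraries were trimmed by the authors with Trim Galore, aligned to GRCh38 with HISAT2 2.1.0 and summarized per gene by featureCounts, as the methods and the processing notes state. The deposited files hold these raw counts, without scaling, for 49 genes. Strand setting and annotation release are not given in the sources used here. Groups came from the sample titles, and the 49 gene IDs were named from GENCODE release 44.

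Each comparison was fitted on its 6 libraries with edgeR 4.0.16 in R 4.3.3 (filterByExpr with minimum count 10 and minimum total 15, TMM, robust quasi-likelihood F test, no covariate) after the script had been tested on simulated data. Benjamini-Hochberg adjustment covered all genes tested, and "passed" means an adjusted p under 0.05. Standard errors were derived as the absolute log2 fold change over the square root of F. Normalized counts were scaled over 9 libraries, unlike the pairwise fits, and log2 levels had a pseudocount of 1. Settings tried besides were the 3 groups fitted jointly, the replicate block, other scalings, DESeq2 1.42.0, other filters, an exact permutation test and each library left out. Plain totals without LASP1, dispersions estimated without the robust option and a GC correction were added after seeing the data. Genes named besides the members were, by rule, the 3 most alike in pattern, neighbours within 200 kb and list members. Some of the genes this rule names are not reported here. MTMR7 and CFTR were picked with their values in view. Members and lists were chosen with earlier results of these data known. Replicate libraries differed beyond sampling noise (chi-square at least 226 on 45 degrees of freedom).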

Additional observations from a re-analysis of the deposited data

How the results depend on the processing

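LASP1 kept its direction in AGEs against shCtrl-Normal in all 18 other settings (log2 fold change 0.15 to 0.25), and its call in 17 of them; the exact permutation test, which cannot pass at this size, gave 0.21 (adjusted p = 0.23). KRIT1 in that comparison passed with a minimum mean count of 50 (−0.27), plain totals (−0.32), plain totals without LASP1 (−0.28) and without shCtrl-AGEs replicate 3 (−0.33), and lay between −0.33 and −0.18 with each library left out. After silencing, LASP1 lost its call with DESeq2 size factors (−0.18), DESeq2's Wald test (−0.18), no filter (−0.13), plain totals (−0.061), plain totals without LASP1 (−0.076), the permutation test (−0.21), dispersions that were not robust (−0.21, adjusted p = 0.0505) and the GC correction (−0.21), and lay between −0.23 and −0.14 with each library left out. KRIT1 after silencing lay between −0.087 and 0.46 with each library left out. For shJMJD1A-AGE over shCtrl-Normal, LASP1 changed sign with all 3 groups in one fit (−0.00030) and with DESeq2 size factors (−0.013). KRIT1 there changed sign with plain totals (0.0018), with plain totals without LASP1 (0.025) and without shJMJD1A-AGE replicate 3 (0.24), and lay between −0.33 and 0.24 with each library left out. Apart from plain totals, the filter, the left-out libraries and the permutation test, whose own construction changes scaling, genes, samples or power, the cause was not tested. With the exact permutation test 0 genes passed in each comparison, where edgeR called 15, 19 and 18 and had 22, 24 and 22 at an unadjusted p under 0.05. Plain totals gave 6 higher and 11 lower for AGEs, against 9 and 6 by TMM, 13 and 8 for silencing, against 9 and 10, and 9 and 9 for shJMJD1A-AGE over shCtrl-Normal, against 8 and 10. Correlations over genes lay between −0.43 and 0.31 for same-numbered libraries and between −0.68 and 0.72 for differently numbered ones. With so wide a range this check cannot settle whether the numbers pair the libraries. With a replicate block the calls came to 16, 19 and 19, LASP1 had 0.21, −0.21 and 0.025, KRIT1 had −0.25, 0.10 and −0.14, and no call of either member changed. The difference in the LASP1 to KRIT1 log2 ratio lay between 0.40 and 0.54 for AGEs, between −0.69 and −0.068 for silencing and between −0.22 and 0.40 for shJMJD1A-AGE over shCtrl-Normal with each library left out. Counting error alone gives KRIT1 a spread of 5.32% to 6.36% between the libraries of a group. The standard errors of its fitted log2 fold changes, 0.11 to 0.33, set what could be detected.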
